A study of Mus musculus with 51 samples.

Results

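The 38 Hox genes listed for this account were read through the chromatin at their promoters and across their 4 clusters in male germ cells of mice. They were chosen by name, and they are 38 of the 21924 protein-coding genes in the annotation used (GENCODE M21 on GRCm38, also called mm10). The HoxA list has 10 genes from Hoxa2 to Hoxa13 over 98.5 kb of chromosome 6 (52162417 to 52260880), and the HoxB list has 10 genes from Hoxb1 to Hoxb13 over 173.9 kb of chromosome 11 (96194316 to 96368256). The HoxC list has 9 genes from Hoxc4 to Hoxc13 over 115.8 kb of chromosome 15 (102921103 to 103036852), and the HoxD list has 9 genes from Hoxd1 to Hoxd13 over 96.8 kb of chromosome 2 (74668310 to 74765142).

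The series holds 51 samples and asks how the chromatin remodeller HELLS and the histone methyltransferase PRDM9, which chooses the sites of meiotic DNA breaks, act on chromatin in these cells. Open chromatin was measured by ATAC-seq, in which a transposase cuts accessible DNA, in germ cells of mice aged 12 to 14 days. ATAC-seq libraries used here came from C57BL/6J (B6, 2 libraries), B6-Prdm9CAST-KI (KI, B6 mice that carry the CAST allele of Prdm9, 2), Hells CKO (conditional knockout, 3), Hells wt (2) and the (B6xCAST) F1 hybrid (2). H3K9ac, an acetylation mark of active chromatin, was measured at the same age in B6 (3 libraries), KI (2), Spo11/Spo11 (1) and the F1 hybrid (1), where Spo11 encodes the enzyme that makes meiotic breaks. H3K4me3, a methylation mark of promoters and of sites bound by PRDM9, was measured at the same age in Spo11/Spo11 (2), Spo11/+ (1), Hells CKO (3) and Hells wt (1). Single-stranded DNA bound by DMC1, which marks meiotic breaks, was mapped in whole testis at 6 weeks in Hells het and Hells CKO mice, 2 libraries and 1 merged peak list for each genotype. HELLS itself was mapped in KI testis at 12 to 14 days (2 libraries, with 1 IgG and 1 input library). The authors also deposited a segmentation of B6 germ cell chromatin into 11 numbered states. The driver of the Hells deletion, the animals behind each library and the names of the states were not given in the sources used here, so p-values measure the spread between libraries only. KI and B6 libraries carry different number series in their labels, so strain and library series cannot be told apart. The same holds for H3K9ac of Spo11/Spo11 against B6. For H3K4me3, the Spo11/+ and Spo11/Spo11 libraries carry other number series than those of Hells CKO.

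Hox genes encode homeodomain transcription factors that pattern the body axis, and their order along a cluster follows the order of the body regions in which they act. Genes numbered 1 to 4 are called anterior here, 5 to 8 central and 9 to 13 posterior. In cells that do not use them, Hox clusters are a classic domain of Polycomb repression, in which promoters rich in CpG dinucleotides often carry H3K4me3 together with H3K27me3. Hox proteins bind DNA with TALE cofactors such as the PBX and MEIS proteins.

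Total counts in regions were 27952728 to 34572929 in the ATAC libraries of B6 and KI, 6416704 to 11352108 in those of the Hells groups, 13195275 to 30233934 for H3K9ac, 13321006 to 42007820 for H3K4me3 and 3125377 to 5003968 per allele in the F1. Markers of germ cells had promoter signal in every table, and so did those of Sertoli cells, the somatic nurse cells of the tubule. The cells are an enriched preparation, so a change in its make-up and a change of signal per cell cannot be told apart. The summed CPM of 5 germ cell markers was 258 to 359 in the ATAC libraries of B6 and KI, while the sum of the 7 Sertoli markers with a region was 165 to 211. None of 4 blood cell markers had a region in that table. The order was reversed in the ATAC libraries of the Hells groups. There the germ cell sum was 132 (CKO replicate 3) to 241 and the Sertoli sum was 318 to 381. Regions stood at 2 of the blood cell markers there, with a sum of 91.3 to 105.

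A promoter was the 1 kb on either side of any annotated transcription start, and a gene was read through the strongest deposited region that overlapped it. Values are CPM, in which each library's counts are scaled to a common total, and they are divided by region length in kb where genes are set beside each other. Hox promoters lay low in each table. In ATAC-seq of B6 and KI, 34 of the 38 genes had a region, with a median level of 7.78 CPM per kb (5.74 to 15), where all protein-coding genes with a region had a median of 19.2. In ATAC-seq of the Hells groups, 30 genes had a median level of 7.29 CPM per kb (4.73 to 14.4) beside 16.5. For H3K9ac, 35 genes had a median level of 3.14 CPM per kb (1.72 to 8.59) beside 8.6, and for H3K4me3 all 38 had a median level of 6.25 (3.71 to 12.5) beside 13.2.

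No ATAC region overlapped the promoters of Hoxa6, Hoxb2, Hoxb6 and Hoxb13 in the B6 and KI table. In the table of the Hells groups, Hoxa2, Hoxa6, Hoxa9, Hoxa11, Hoxb1, Hoxb2, Hoxb8 and Hoxb13 had none, and for H3K9ac Hoxa2, Hoxa6 and Hoxd12 had none. Neighbouring genes can share a region (for H3K9ac and H3K4me3, Hoxb7 with Hoxb8 and Hoxd3 with Hoxd4), so these genes rested on 33, 28, 32 and 34 separate regions in the 4 tables.

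**Figure D1:**
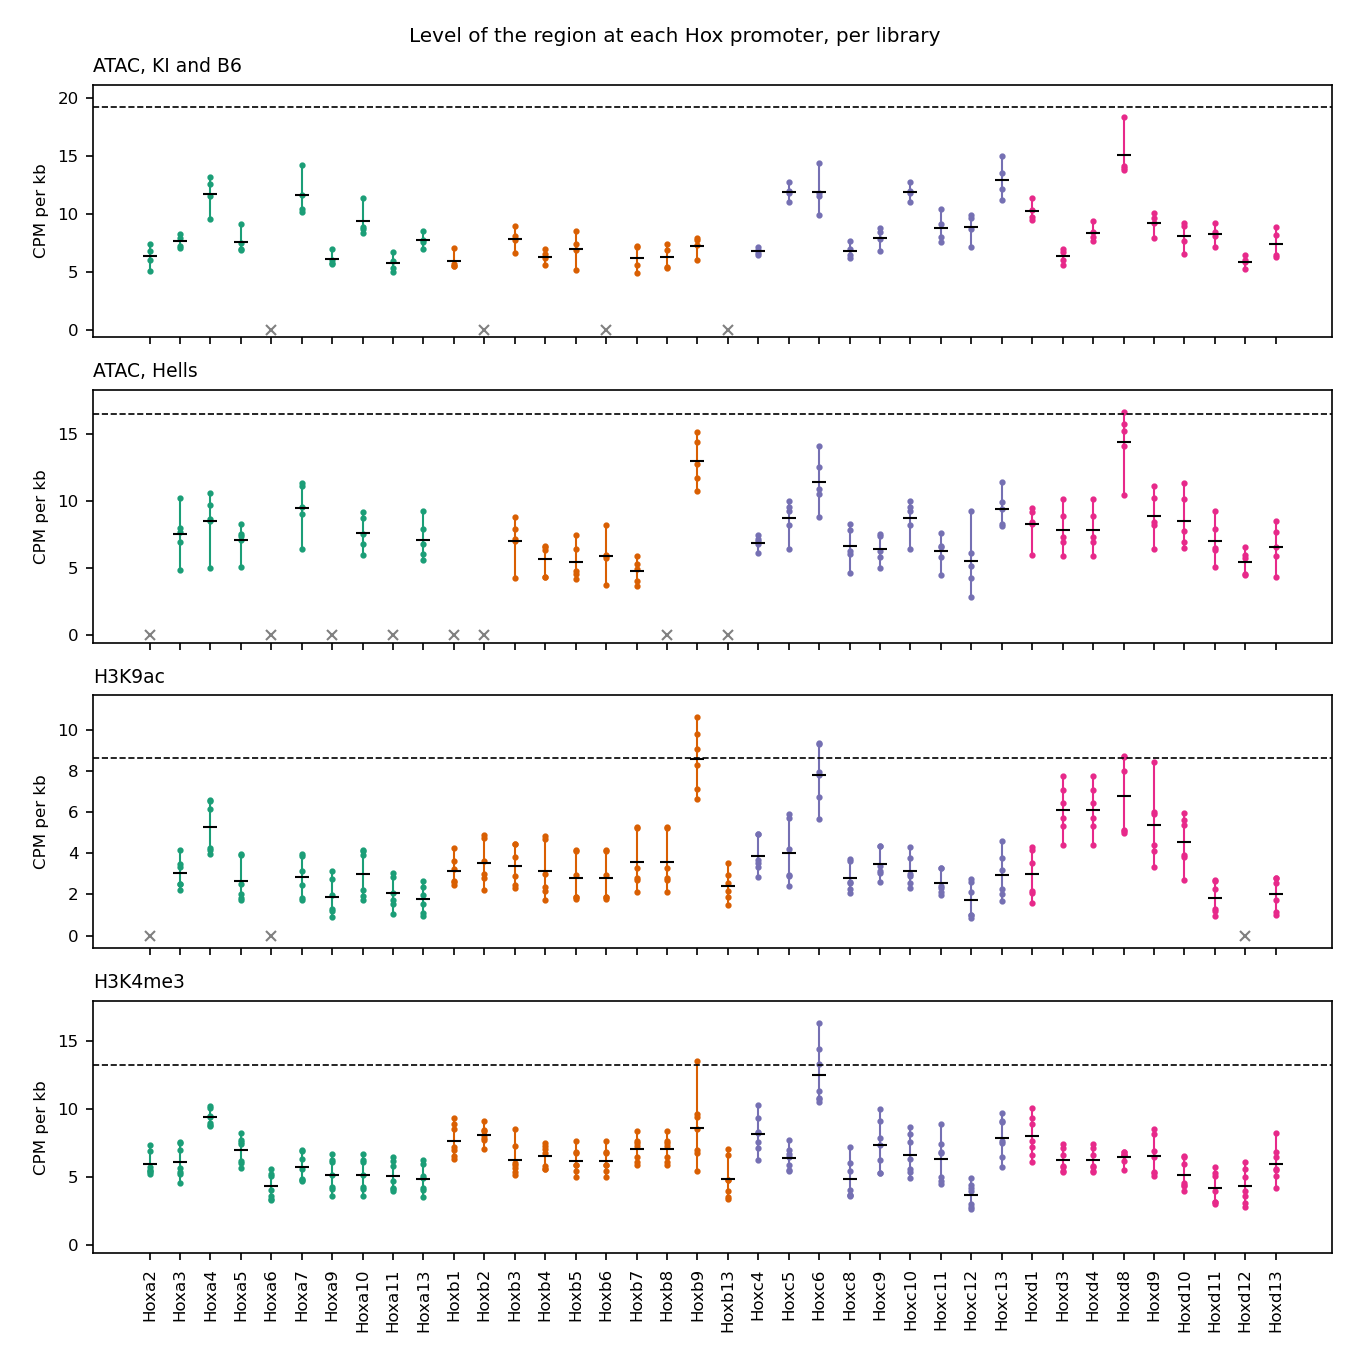
Level of each Hox gene's promoter region in CPM per kb, 1 panel per table, with genes ordered along each cluster. Points are libraries, black ticks are means, grey crosses mark genes with no region, and the dashed line is the median of protein-coding genes with a region (19.2, 16.5, 8.6 and 13.2 CPM per kb). The mean of each Hox gene lies below that line, with Hoxb9 in H3K9ac the nearest to it at 8.59.

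By mean CPM of the whole region, which is not divided by its length, Hoxc6 led its cluster in all 4 tables, with 29.9 CPM in ATAC-seq of B6 and KI (24.9 to 36.1 over libraries), 40.9 in that of the Hells groups (31.6 to 50.7), 48.8 for H3K9ac (35.5 to 58.4) and 60.3 for H3K4me3 (50.6 to 78.8). Hoxd8 led HoxD in all 4 tables as well, at 26.5, 36.7, 20.7 and 40.9 CPM in the same order. Hoxb9 led HoxB at 15.6, 50.8 and 33.9 CPM in the ATAC and H3K9ac tables, and Hoxb7 led it for H3K4me3 at 48.0 CPM (40.1 to 57). Hoxa4 led HoxA at 20.7, 16.2 and 19.9 CPM, and Hoxa5 led it for H3K4me3 at 31.8 CPM (25.9 to 37.5). Per kb the order differed in places. In ATAC-seq of B6 and KI, Hoxc13 (13 CPM per kb) was above Hoxc6 (11.9) and Hoxb3 (7.84) above Hoxb9 (7.26), and in that of the Hells groups Hoxa7 (9.47) was above Hoxa4 (8.47). For H3K4me3 Hoxa4 (9.38) led HoxA per kb, Hoxb9 (8.61) led HoxB and Hoxd1 (7.98) was above Hoxd8 (6.46).

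Median histone marks were lowest over posterior genes, but not every posterior gene was low. Hoxb9 had the highest H3K9ac level of all 35 genes (8.59 CPM per kb) and ranked 3 of 38 for H3K4me3 (8.61). The median H3K9ac level was 3.47 CPM per kb over anterior, 3.2 over central and 2.56 over posterior genes, and the median H3K4me3 level was 6.52, 6.41 and 5.18. Accessibility had no such order, with 7.2, 7.6 and 8.09 CPM per kb in ATAC-seq of B6 and KI. Across genes, levels in both ATAC tables had a Spearman rho of 0.69 (29 genes), H3K9ac and H3K4me3 had 0.65 (35 genes), and H3K9ac had 0.2 with ATAC-seq of B6 and KI (32 genes) and 0.58 with that of the Hells groups (29 genes). These are descriptions across genes that share libraries and regions.

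The authors' segmentation placed Hox promoters mostly in state 2. State 2 covered the largest share of the promoter windows of 29 of 38 genes (76.3%), where it led 6.39% of all protein-coding genes. State 1, which led 31.6% of protein-coding genes, led only 7 Hox genes (18.4%), which were Hoxa4, Hoxb7, Hoxb9, Hoxc6, Hoxc10, Hoxd8 and Hoxd10. State 8 led Hoxa3 and Hoxc4. Each of the 38 genes had some state 2 in its windows and 27 had some state 1, and no window held states 5 to 7 or 9 to 11. Hoxb9 had the largest share of state 1 (90.3%), while the windows of Hoxb13 and Hoxd12 were wholly state 2. State 2 was not particular to Hox genes, since it led 22 of 25 developmental transcription factors outside the clusters and 11 of 12 homeobox genes beside or upstream of them, such as Evx2 and Cdx2.

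Hoxc6, Hoxd8 and Hoxb9, whose regions had high CPM, were all led by state 1. Beside other genes of the same state, state 2 Hox genes were close in level and state 1 Hox genes were lower. For H3K4me3 the median level was 6.21 CPM per kb over state 2 Hox genes and 6.43 over all state 2 genes with a region, but 7.04 over state 1 Hox genes and 14.9 over all state 1 genes. For H3K9ac these medians were 2.88 and 3.29 for state 2, and 5.28 and 9.93 for state 1. ATAC-seq of B6 and KI gave 7.72 and 8.43 for state 2, and 11.7 and 20.9 for state 1.

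Over the whole clusters, state 8 covered 42.4% of bases, state 2 covered 38.4% and state 1 covered 11.6%. Across the genome the same states covered 4.52%, 1.21% and 1.6%. HoxA and HoxD had the largest shares of state 2 (47.8% in each), and HoxC had the largest share of state 8 (52.1%). State 7, which holds 67.5% of DMC1 peak centres of Hells het mice, was absent from all 4 clusters.

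**Figure D2:**
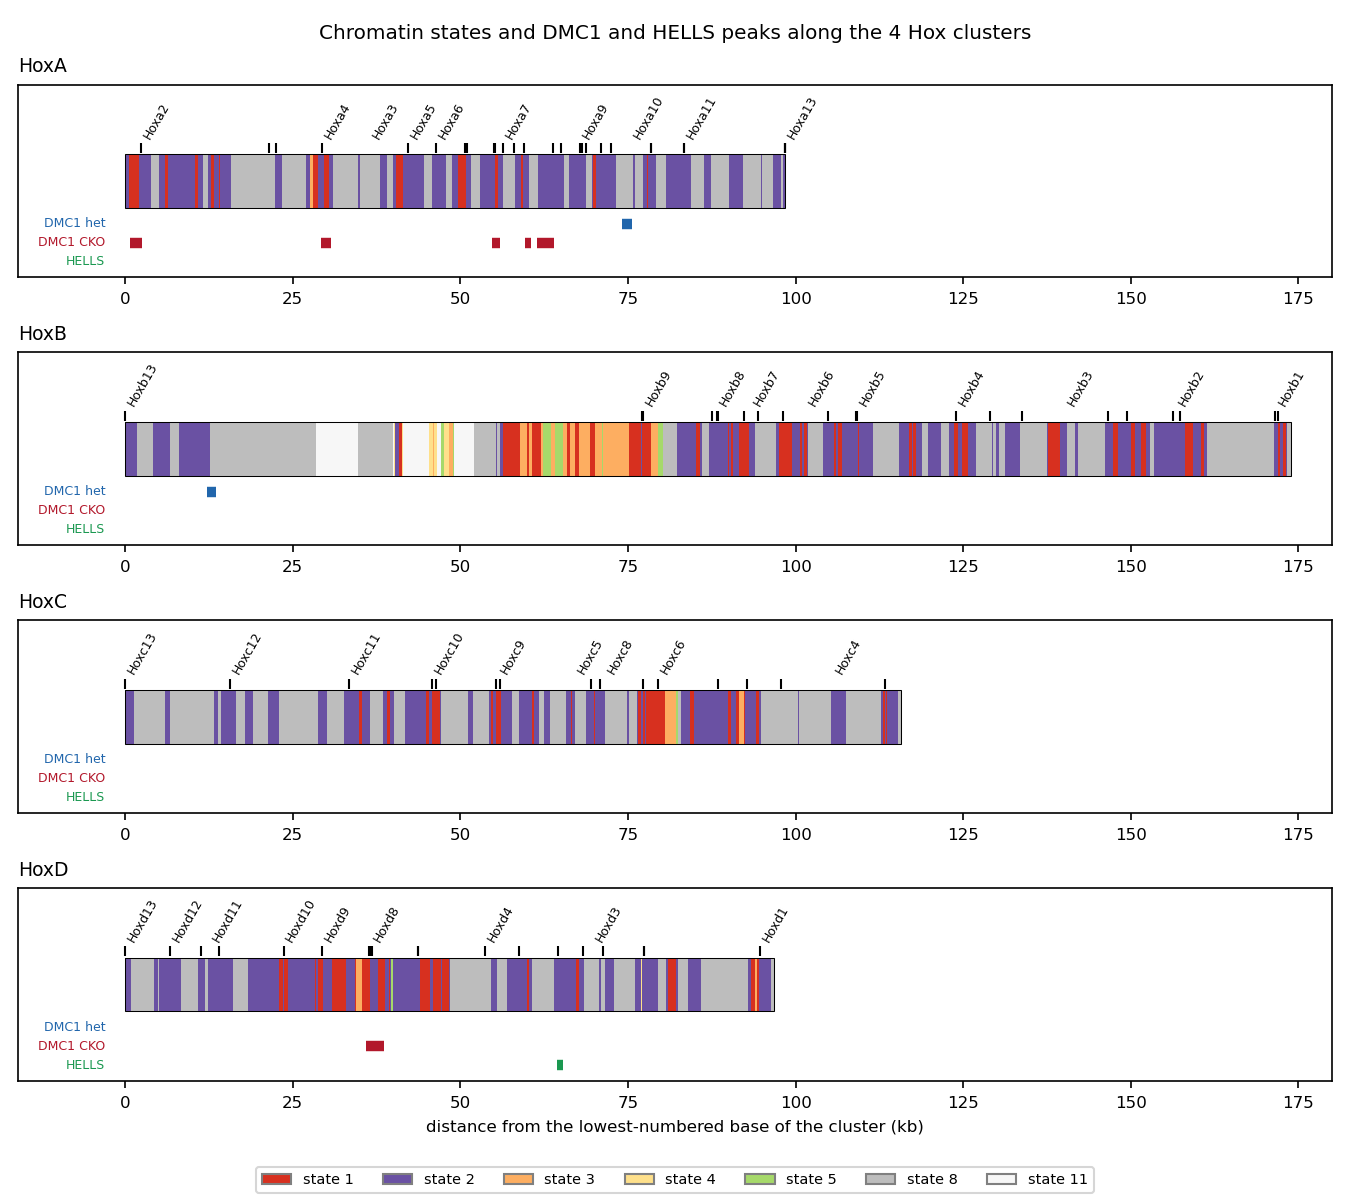
Map of the 4 Hox clusters in kb from the lowest-numbered base, coloured by the authors' chromatin state, with ticks at annotated starts of the listed genes. Bars under each map are peaks of DMC1 in Hells het, DMC1 in Hells CKO and HELLS; 5 of the 6 DMC1 peaks of Hells CKO lie in HoxA and 1 in HoxD, the 2 peaks of Hells het lie in HoxA and HoxB, and the single HELLS peak lies in HoxD.

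DMC1 peaks in the clusters were few and differed in place between genotypes. Hells het had 2 (4.12 per Mb, beside 5.81 across the genome) and Hells CKO had 6 (12.4 per Mb, beside 5.39). In Hells het testis none of 38 Hox promoters held a DMC1 peak (0%, exact 95% binomial interval up to 9.25%), where 7.72% of protein-coding promoters did. In Hells CKO testis 5 of 38 held one (13.2%, interval 4.41 to 28.1%), where 40.2% of protein-coding promoters did. These were Hoxa2, Hoxa4, Hoxa7 (with 2 peaks), Hoxa9 and Hoxd8. Among genes led by state 1, a CKO peak stood at 2 of 7 Hox genes beside 61.9% of all such genes. Among genes led by state 2, it stood at 3 of 29 Hox genes beside 20% of all such genes. With 1 merged list per genotype there was no test of the difference between genotypes, and the intervals treat genes as independent although neighbours share chromatin.

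Both het peaks in the clusters lay away from promoters. The first, chr6:52236458-52238004, lay in an intron of Hoxa10, 2.29 kb from its nearest start and wholly in state 8. The second, chr11:96206572-96207808, was intergenic between Hoxb13 and Hoxb9, and 65.3% of it was state 8. At the density of het peak centres in state 8 across the genome, the 206 kb of state 8 in the clusters would hold 0.393 centres, and 2 were found. On the same basis state 1 would hold 1.48 and state 2 would hold 3.72, and none was found in either. No CKO peak in the clusters overlapped any het peak, while 13.7% of all CKO peaks did.

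All 6 CKO peaks in the clusters overlapped a Hox promoter. In HoxA they were chr6:52163178-52164875 at Hoxa2, chr6:52191587-52193034 at Hoxa4, chr6:52217060-52218257 and chr6:52222070-52222869 at Hoxa7, and chr6:52223794-52226421 at Hoxa9. In HoxD the peak was chr2:74704273-74706978 at Hoxd8, over its exons. Their centres lay 3 in state 1 and 3 in state 2. At the density of these centres in each state across the genome, the clusters would hold 12.0 in state 1 and 20.6 in state 2. Evx2, a homeobox gene beside HoxD, carried 2 further CKO peaks inside the gene, 2.9 and 4.73 kb from its start and so outside its promoter window. The other lists at the same window gave 5 of 9 TALE cofactors, 11 of 16 Polycomb genes, 11 of 25 developmental transcription factors and 1 of 12 homeobox genes beside or upstream of the clusters (Gbx1).

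The HELLS list had 2675 peaks, and 1 of them lay in a Hox cluster, at chr2:74732699-74733636 in HoxD. It overlapped the window of an alternative start of Hoxd3, so HELLS marked 1 of 38 Hox promoters (2.63%, interval 0.0666 to 13.8%), where 6.72% of protein-coding promoters carried a HELLS peak. State 2 covered the whole peak, and 0.428% of the promoters led by state 2 carried a HELLS peak. The states are those of B6, while HELLS was mapped in KI, which carries another Prdm9 allele, so the state of this site in KI is not known. The authors' counts in the peak were 114 and 77 in the HELLS libraries, 11 in IgG and 27 in input, while the median peak of the list had 59, 50, 9 and 16. The mean HELLS count was 8.68 times the IgG count here, and the median of this ratio over all peaks of the list was 6.33. Both ratios use counts not scaled for library size and 1 IgG library, which had only 11 counts here. The ratio to input was not worked out, and the input count was also above that of the median peak.

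The centres of 5 of these peaks are shown because they contrast the bases under the het, CKO and HELLS peaks. Not all CKO centres contrast in this way. That at Hoxa2, which is not shown, held 2 CpGs, where the het centres held 1 and 3. Each line is 200 bases of the + strand of GRCm38, read from the RefSeq assembly, in lower case with every CpG in capitals.
DMC1 het peak in HoxA, intron of Hoxa10, chr6:52237131-52237330: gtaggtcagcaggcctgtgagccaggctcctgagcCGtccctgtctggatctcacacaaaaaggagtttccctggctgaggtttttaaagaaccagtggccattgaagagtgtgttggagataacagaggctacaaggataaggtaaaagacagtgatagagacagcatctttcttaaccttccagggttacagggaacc
DMC1 het peak in HoxB, intergenic, chr11:96207090-96207289: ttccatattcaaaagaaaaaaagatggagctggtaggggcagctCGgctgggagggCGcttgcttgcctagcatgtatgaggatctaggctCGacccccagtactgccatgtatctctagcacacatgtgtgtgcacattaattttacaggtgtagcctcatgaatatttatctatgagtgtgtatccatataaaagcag
DMC1 CKO peak in HoxA at Hoxa4, chr6:52192211-52192410: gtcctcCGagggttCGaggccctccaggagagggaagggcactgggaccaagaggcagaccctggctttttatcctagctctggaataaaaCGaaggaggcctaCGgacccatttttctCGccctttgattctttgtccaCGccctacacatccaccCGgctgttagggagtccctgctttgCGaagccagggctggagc
DMC1 CKO peak in HoxA at Hoxa7, intron of Hoxa7, chr6:52217559-52217758: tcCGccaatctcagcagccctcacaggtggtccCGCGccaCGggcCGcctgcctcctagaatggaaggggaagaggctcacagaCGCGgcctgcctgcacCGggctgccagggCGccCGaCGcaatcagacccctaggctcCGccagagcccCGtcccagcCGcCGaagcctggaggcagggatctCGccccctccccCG
HELLS peak in HoxD, intron of Hoxd3, chr2:74733068-74733267: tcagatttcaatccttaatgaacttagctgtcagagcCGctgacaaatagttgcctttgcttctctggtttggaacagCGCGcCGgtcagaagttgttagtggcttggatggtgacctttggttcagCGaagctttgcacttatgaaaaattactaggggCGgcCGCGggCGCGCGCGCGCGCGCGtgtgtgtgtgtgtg

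The het centre in HoxA held 1 CpG and that in HoxB held 3, and the median over all het peaks was 1 in 200 bases. The CKO centres held 2 CpGs at Hoxa2, 8 at Hoxa4, 17 and 9 at Hoxa7, 8 at Hoxa9 and 31 at Hoxd8, and the median over all CKO peaks was 8. Only 3.02% of CKO peaks reached the count of the Hoxd8 centre. The HELLS centre in HoxD held 16, and the median of that list was 6, but 42.3% of HELLS peaks reached this count. Several of these CpGs stood in an unbroken run of CG that is followed by a run of TG. In 500 bases around the outermost start, Hox promoters had a median of 28 CpGs (4 to 70), beside 23 over protein-coding genes. CpG count is a description of these windows and no binding motif was searched.

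The HoxD site under the HELLS peak held the 1 ATAC region in the clusters that passed the test of KI against B6. The ATAC region chr2:74732543-74733333 had 2.92 and 2.24 CPM in B6 and 7.02 and 6.26 CPM in KI. Both KI libraries lay above both B6 libraries, and the log2 fold change was 1.36 ± 0.256 (SE). Its adjusted p was 0.00228 by edgeR, with Benjamini-Hochberg adjustment over all 81887 regions of the table. It was 1 of 80 regions in the clusters, where 9.41% of all regions passed (7.14% as higher), and it lay 0.024 kb from the alternative start of Hoxd3. Hoxd3 itself was read through another, stronger region, chr2:74746206-74747514.

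H3K9ac at the same site, chr2:74732089-74733882, was 4.9, 2.14 and 4.5 CPM in B6, 10.5 and 12.0 CPM in KI and 4.51 CPM in Spo11/Spo11. The KI libraries were the highest, and the B6 and Spo11/Spo11 libraries did not reach them. The log2 fold change was 1.54 ± 0.367 with an adjusted p of 0.0566 in edgeR, above the threshold of 0.05, and of 0.0102 in DESeq2. H3K4me3 there, chr2:74731958-74734344, was 5.83 and 7.28 CPM in Spo11/Spo11, 6.92 in Spo11/+, 9.35 in Hells wt and 10.3, 8.67 and 9.97 in Hells CKO. Hells wt lay within the range of the CKO libraries, and the log2 fold change of CKO over the other 3 groups was 0.36 ± 0.173 (adjusted p = 0.197, edgeR).

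**Figure D3:**
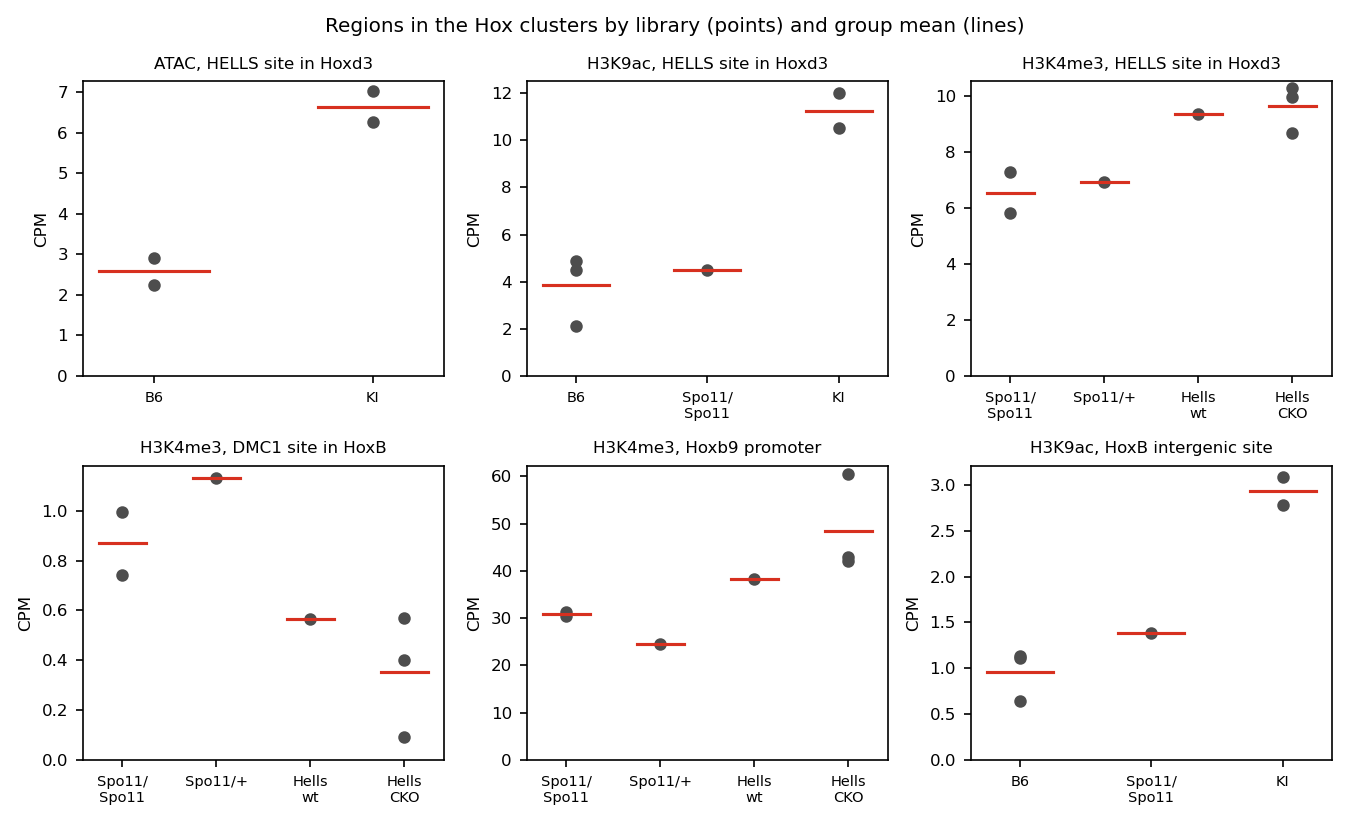
CPM at 6 regions of the Hox clusters in every library of the fit; points are libraries and lines are group means. At the HoxD site with the HELLS peak, KI lies above B6 in ATAC-seq (7.02 and 6.26 against 2.92 and 2.24 CPM) and in H3K9ac (10.5 and 12.0 against 2.14 to 4.9 CPM).

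At the strongest region of each Hox promoter, ATAC-seq of KI and B6 gave no call. The weaker region at the alternative start of Hoxd3, described above, did pass. None of 34 genes passed the edgeR test, where 9.41% of all regions and 2.81% of regions at protein-coding promoters did. None had an unadjusted p under 0.05, and DESeq2 called none. Log2 fold changes ran from −0.36 (Hoxa2) to 0.23 (Hoxd3), 20 were negative, and the median was −0.06 beside −0.15 over all promoter regions. Scaled on promoter regions, 13 were negative and the median was 0.09. Without B6 replicate 1 the median was 0.11 (11 negative) and without B6 replicate 2 it was −0.23 (27 negative), so the direction rested on single libraries. The groups did not overlap at 12 genes, with KI above B6 at Hoxb4 and Hoxd3 and below it at 10, beside 9.3% and 36.8% of promoter regions. Summed over the separate Hox regions, the CPM was 378 to 430 in B6 and 368 to 386 in KI.

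The lowest p belonged to Hoxc13, a posterior gene known for its part in hair and nail, with 32.7 and 29.4 CPM in B6 and 26.4 and 24.4 CPM in KI (log2 fold change −0.29 ± 0.149, adjusted p = 0.452, edgeR). Hoxa4 had 23.4 and 22.4 CPM in B6 and 20.3 and 16.9 CPM in KI (−0.30 ± 0.159, adjusted p = 0.49, edgeR). Hoxd10 had 9.56 and 9.86 CPM in B6 and 8.2 and 6.99 CPM in KI. The KI libraries lay below the B6 libraries at each of these 3 genes, by less than the test's threshold. Without B6 replicate 2, Hoxa4, Hoxa5, Hoxa7, Hoxc13 and Hoxd8 passed as lower in KI, along with 24.6% of promoter regions. Without B6 replicate 1, Hoxc6 passed as lower, along with 14.0%.

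ATAC-seq of Hells CKO and Hells wt gave no call at Hox promoters either. None of 30 genes passed the edgeR test, where 0.382% of all regions and 0.134% of promoter regions did, all of them lower in CKO. None had an unadjusted p under 0.05, DESeq2 called none, and the groups overlapped at all 30 genes. The median log2 fold change was −0.08 (22 negative) beside −0.05 over promoter regions. With the library number series as a block the median was 0.10 (6 negative), and without CKO replicate 3 it was 0.09 (4 negative), so the direction was not settled. Hoxc11 had 7.27, 7.34 and 4.97 CPM in CKO and 6.48 and 8.47 CPM in wt (−0.21 ± 0.309). Hoxc12 had 6.36, 4.19 and 1.95 CPM in CKO and 3.57 and 2.91 CPM in wt (0.38 ± 0.432), so its CKO libraries spanned both wt libraries. Hoxc6 had 39.3, 50.7 and 37.7 CPM in CKO and 31.6 and 45.1 CPM in wt (0.14 ± 0.202).

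**Figure D4:**
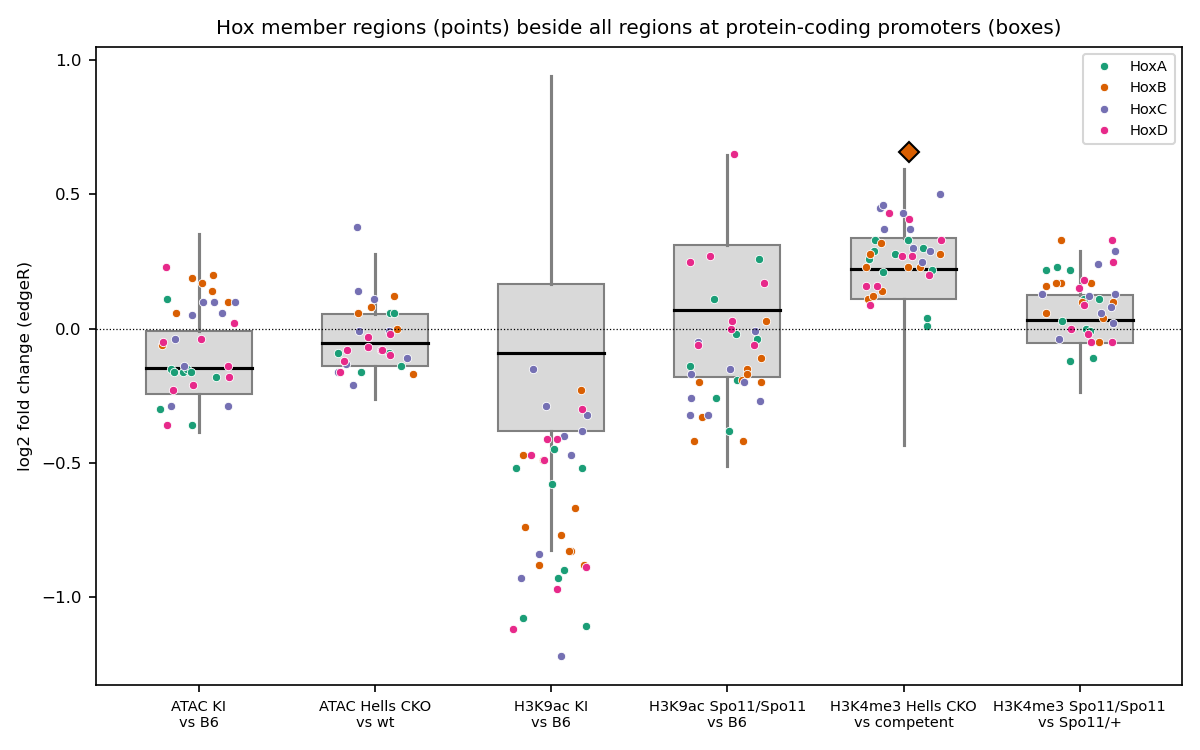
Log2 fold change of each Hox gene's region in the 6 comparisons; points are genes coloured by cluster, boxes are the quartiles of all promoter regions with the median as a line, and whiskers span their 5th to 95th percentiles. The diamond is Hoxb9, which passed the edgeR threshold in H3K4me3 (0.66); the H3K9ac points of KI against B6 all lie below 0, from −1.22 to −0.15.

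H3K9ac had the widest spread at Hox genes. All 35 genes had a negative log2 fold change in KI against B6, from −1.22 (Hoxc12) to −0.15 (Hoxc6), with a median of −0.58 beside −0.09 over promoter regions. All 35 were negative also with RLE factors, with scaling on promoter regions (median −0.50) and with library size alone (−0.72). With the region of longest overlap in place of the strongest, 34 were negative and 1 was positive (median −0.67). The shared sign thus holds for the strongest regions, and the weaker region at the alternative start of Hoxd3 was higher in KI (1.54). None passed the edgeR test, where 12.3% of all regions passed, as did 4.14% of promoter regions (0.175% as lower). At an unadjusted p under 0.05 there were 6 genes, which were Hoxd13, Hoxa13, Hoxb13, Hoxa10 (−0.93 ± 0.33), Hoxc13 (−0.93 ± 0.338) and Hoxa5 (−0.90 ± 0.345), and DESeq2 called none. Of these 6 genes, 5 are posterior and Hoxa5 is central, where 15 of the 35 genes tested are posterior. The share of promoter regions at that unadjusted p was not counted. Medians were −0.74 in HoxA, −0.75 in HoxB, −0.40 in HoxC and −0.48 in HoxD, and −0.48 over anterior, −0.83 over central and −0.77 over posterior genes.

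Hoxd13, the last gene of HoxD and a regulator of digits, had 2.65, 1.76 and 2.87 CPM in B6, 1.2 and 1.03 CPM in KI and 2.9 CPM in Spo11/Spo11 (KI against B6 −1.12 ± 0.348, adjusted p = 0.126, edgeR). Hoxa13, its HoxA counterpart, had 3.06, 2.01 and 3.49 CPM in B6, 1.43 and 1.27 CPM in KI and 2.6 CPM in Spo11/Spo11 (−1.08 ± 0.343, adjusted p = 0.134, edgeR). Hoxb13, known for its part in prostate and tail, had 8.58, 5.35 and 7.21 CPM in B6, 4.58 and 3.69 CPM in KI and 6.27 CPM in Spo11/Spo11 (−0.77 ± 0.272). All of their KI libraries lay below all of their B6 libraries. The same held for 8 of 35 genes (Hoxa3, Hoxa5, Hoxa10, Hoxa13, Hoxb1, Hoxb13, Hoxc13 and Hoxd13), beside 20.7% of promoter regions.

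One B6 library decided these calls. The summed CPM of the Hox regions was 526, 295 and 525 in B6 replicates 1, 2 and 3, then 334 and 286 in KI and 422 in Spo11/Spo11. B6 replicate 2 thus lay between the KI libraries, and Spo11/Spo11 lay between it and the other B6 libraries. Measured from each gene's mean over the 6 libraries on the log2 scale, the median Hox gene was at 0.48 and 0.49 in B6 replicates 1 and 3, at −0.37 in B6 replicate 2, at 0.15 in Spo11/Spo11 and at −0.26 and −0.46 in KI. Without B6 replicate 2, all 35 genes passed as lower in KI, along with 32.7% of promoter regions, while 51.5% of promoter regions passed in either direction. Germ cell marker sums were 169, 188 and 167 CPM in B6 and 203 and 202 CPM in KI, and Sertoli marker sums were 570, 426 and 533 CPM in B6 and 533 and 396 CPM in KI. Leydig marker sums (4 genes) were 133, 86.6 and 135 CPM in B6, 98 and 76.8 CPM in KI and 106 CPM in Spo11/Spo11, lowest in the same 3 libraries as the Hox sum. Peritubular, stromal and endothelial marker sums (10 genes) were 268, 194 and 265 CPM in B6 and 213 and 208 CPM in KI. In Spo11/Spo11 that sum was lowest, at 189 CPM, while the germ cell sum was 237 CPM and the Sertoli sum 486 CPM. Blood marker sums (2 genes) were 2.1, 4.53 and 3.03 CPM in B6 and 5.88 and 9.38 CPM in KI, and Ptprc among them passed as higher in KI (4.75 ± 1.0, adjusted p = 0.0379, edgeR). B6 replicate 2 had the highest germ cell sum and the lowest Sertoli sum of the B6 libraries. It also had 15058790 counts, where the other B6 libraries had 30233934 and 29242297, and the part of these values in the Hox result was not tested.

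**Figure D5:**
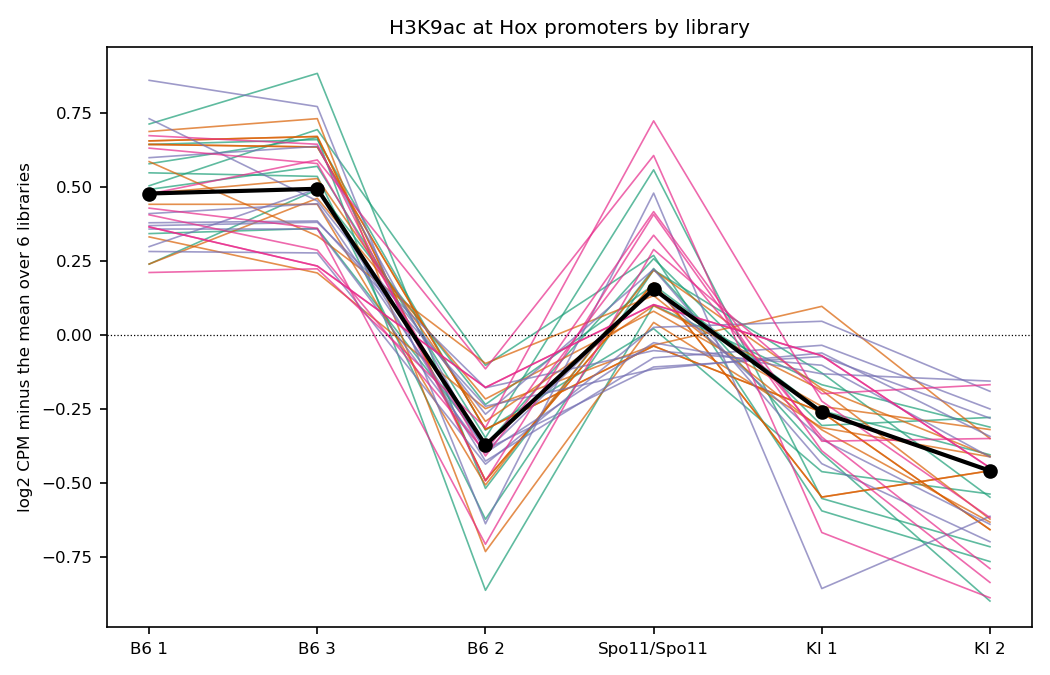
H3K9ac of 35 Hox genes as log2 CPM minus the gene's mean over the 6 libraries; each thin line joins the values of 1 gene and the black line joins medians. B6 replicates 1 and 3 lie at medians of 0.48 and 0.49, B6 replicate 2 at −0.37, Spo11/Spo11 at 0.15 and KI at −0.26 and −0.46.

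Developmental transcription factors outside the clusters had a like shift in H3K9ac, with a median log2 fold change of −0.62 over 25 genes and no call. The homeobox genes beside or upstream of the clusters had a median of −0.87 over 11 genes with a region, and En2 among them passed as higher in KI (1.08 ± 0.228, adjusted p = 0.038, edgeR). TALE cofactors had a median of −0.37 and Polycomb genes −0.11, with 1 call, Rnf2, higher in KI.

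Within the clusters none of 68 H3K9ac regions passed, and 15 had an unadjusted p under 0.05. The share of all regions at that p was not counted. Besides the HoxD site, the value nearest the threshold was at chr11:96241807-96242525 in HoxB, with 0.645, 1.13 and 1.11 CPM in B6, 2.78 and 3.09 CPM in KI and 1.38 CPM in Spo11/Spo11 (1.61 ± 0.383, adjusted p = 0.0558, edgeR). Its KI libraries lay above the other 4, and the region is in state 4, away from the listed promoters.

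H3K9ac of Spo11/Spo11 against B6 had 1 library in the first group, which the fit takes to vary like the others. None of 35 Hox genes passed, and 0.0% of all regions did. None had an unadjusted p under 0.05. DESeq2 called none, and it gave an adjusted p for Hoxc6 only (0.902). Hoxd9 had the lowest p (0.0812, adjusted p = 0.924, edgeR), with 11.5, 8.0 and 11.6 CPM in B6 and 16.4 CPM in Spo11/Spo11. The region shared by Hoxb7 and Hoxb8 followed, at 33.5, 17.2 and 33.3 CPM in B6 and 20.9 CPM in Spo11/Spo11, which lay inside the B6 range. Without B6 replicate 2, 12 genes passed, 11 as lower and Hoxd9 as higher, along with 30.6% of promoter regions.

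H3K4me3 was tested in Hells CKO against the 3 HELLS-competent groups (Hells wt, Spo11/+ and Spo11/Spo11). Hoxb9 alone of the 38 Hox genes passed, and it was higher in CKO. Over all regions 18.9% passed (2.29% as higher), and over promoter regions 8.33% (4.38% as higher). Hoxb9, the first posterior gene of HoxB along the cluster, had 43.0, 42.1 and 60.5 CPM in CKO, 38.3 CPM in Hells wt, 24.5 CPM in Spo11/+ and 31.3 and 30.4 CPM in Spo11/Spo11 (0.66 ± 0.168, adjusted p = 0.0149, edgeR). All CKO libraries lay above the others, with Hells wt the nearest. Against Hells wt alone Hoxb9 had a log2 fold change of 0.34 and an adjusted p of 0.577 (edgeR), and without CKO replicate 3 it had 0.48 and 0.075.

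The next genes by p were of HoxC. Hoxc9 had 24.2, 32.9 and 29.9 CPM in CKO, 25.9 CPM in Hells wt, 17.4 CPM in Spo11/+ and 20.7 and 17.5 CPM in Spo11/Spo11 (0.50 ± 0.159, adjusted p = 0.0501, edgeR). Its Hells wt library lay inside the CKO range. Hoxc6 had 64.3, 69.6 and 78.8 CPM in CKO, 51.9 CPM in Hells wt, 50.6 CPM in Spo11/+ and 54.8 and 52.4 CPM in Spo11/Spo11 (0.45 ± 0.148, adjusted p = 0.0596, edgeR). Its CKO libraries all lay above the others. The share of promoter regions with an unadjusted p under 0.05 was not counted. Among Hox genes there were 10. Of these 5 were of HoxC (Hoxc4, Hoxc6, Hoxc9, Hoxc11 and Hoxc12), and the others were Hoxb9, Hoxd11 (0.41 ± 0.159), Hoxd12 (0.43 ± 0.176) and the pair Hoxa9 and Hoxa10, which share a region (0.33 ± 0.147). DESeq2 called 4 as higher (Hoxb9, Hoxc6, Hoxc9 and Hoxc11), beside 10.8% of promoter regions. CKO libraries lay above all others at 5 genes (Hoxb7, Hoxb8, Hoxb9, Hoxc4 and Hoxc6), beside 18.2% of promoter regions.

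These counts depended on the control and on single libraries. Against Hells wt alone no gene passed (0.0535% of promoter regions passed as higher). Without CKO replicate 1 there were 19 genes (22.5%), without replicate 2 there were 2 (21.4%), and without replicate 3 there were 0 (0.396%). With RLE factors there were 3 (6.37%), and with no low-count filter there were 2 (4.36%).

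Against the 3 groups together, all 38 log2 fold changes were positive, with a median of 0.28 beside 0.22 over promoter regions and 0.09 over all regions. Against Hells wt alone 19 were positive and 19 negative, with a median of −0.01 beside 0.26 over promoter regions, so the shared sign rested on the Spo11/+ and Spo11/Spo11 libraries. Their number series differ from those of the CKO libraries, so genotype and library series cannot be told apart there. When libraries were scaled on promoter regions instead of all regions, 30 of 38 were positive with a median of 0.09. The median was 0.16 over anterior, 0.28 over central and 0.33 over posterior genes, and 0.37 in HoxC. The summed CPM of the Hox regions was 882, 1070 and 1030 in CKO, 986 in Hells wt, 721 in Spo11/+ and 783 and 762 in Spo11/Spo11, so Hells wt lay inside the CKO range. CKO replicate 2 and Hells wt come from 1 library number series, and within it the median log2 ratio over Hox genes was 0.10 (30 of 38 positive), beside 0.12 over promoter regions.

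Sertoli markers moved in the same direction. Of 8 such genes, 4 passed as higher in CKO (Cldn11, Clu, Dhh and Sox9), and of the Leydig markers Nr5a1 did. The summed H3K4me3 of the Sertoli markers was 745, 562 and 827 CPM in CKO, 515 in Hells wt, 429 in Spo11/+ and 487 and 510 in Spo11/Spo11. The germ cell markers summed to 262, 216 and 197 CPM in CKO, 197 in Hells wt, 257 in Spo11/+ and 244 to 250 in Spo11/Spo11. Their part in the Hoxb9 result was not tested. Among developmental transcription factors outside the clusters 3 of 25 passed as higher, and none of the 9 TALE cofactors, 16 Polycomb genes, 9 trithorax and demethylase genes or 12 homeobox genes beside or upstream of the clusters passed in either direction.

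In the clusters 3 of 92 H3K4me3 regions passed, all higher in CKO, where 2.29% of all regions passed as higher. Apart from that of Hoxb9, the first was chr11:96250076-96256593 in HoxB, at Gm53, with 64.2, 48.8 and 73.9 CPM in CKO, 39.7 CPM in Hells wt, 28.5 CPM in Spo11/+ and 34.8 and 31.6 CPM in Spo11/Spo11 (0.90 ± 0.171, adjusted p = 0.00234, edgeR). Gm53 lies between Hoxb9 and Hoxb13, and all CKO libraries lay above the rest. The other was chr15:102980517-102982883 in HoxC, inside the Hoxc9 gene (0.45 ± 0.14, adjusted p = 0.045, edgeR), which no longer passed against Hells wt alone (0.30, adjusted p = 0.561, edgeR). At the het DMC1 peak in HoxB, the region chr11:96206920-96207360 had 0.0933, 0.568 and 0.403 CPM in CKO, 0.567 CPM in Hells wt, 1.13 CPM in Spo11/+ and 0.996 and 0.742 CPM in Spo11/Spo11 (−1.28 ± 0.594, adjusted p = 0.183, edgeR). Hells wt lay at the top of the CKO range there.

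H3K4me3 of Spo11/Spo11 against Spo11/+, the latter with 1 library, gave no call at 38 Hox genes, and 0.0% of all regions passed. None had an unadjusted p under 0.05, and DESeq2 called none. The median log2 fold change was 0.10, with 30 positive, beside 0.03 over promoter regions. Hoxb9 was again the gene with the lowest p (31.3 and 30.4 CPM in Spo11/Spo11, 24.5 CPM in Spo11/+, 0.33 ± 0.267, adjusted p = 1, edgeR). Hoxd13 had 12.3 and 13.3 CPM beside 10.2, and Hoxc13 had 18.7 and 21.8 CPM beside 16.6. These comparisons share libraries with that of Hells CKO.

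In the F1 hybrid, reads were assigned to the B6 or the CAST allele. At least 20 ATAC allele counts stood at 37 Hox genes, over 35 regions, and Hoxc8 had 1. None passed the edgeR test of B6 against CAST alleles, where 13.7% of 70654 regions did, and DESeq2 was not run on alleles. Hoxd9 alone had an unadjusted p under 0.05, with 27 B6 and 46 CAST counts in the first library and 16 and 32 in the second (log2 ratio −0.86 ± 0.332, adjusted p = 0.103, edgeR). Both libraries leaned to CAST. Hoxa9 had 48 and 56 counts, then 31 and 59 (−0.55, adjusted p = 0.23, edgeR), and Hoxc4 had 26 and 41, then 21 and 30 (−0.59, adjusted p = 0.305, edgeR).

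Over all Hox regions the B6 share was 49.2% in the first ATAC library (exact 95% binomial interval 47.3 to 51.1%) and 46.0% in the second (44.0 to 48.1%), beside 51.1% and 50.9% over all regions. In the H3K9ac library it was 54.0% (51.3 to 56.8%) beside 51.9%. These intervals cover counting error only. Of 24 genes with at least 20 H3K9ac allele counts, Hoxd3 and Hoxd4, which share 1 region, had an interval that excluded an equal share, at 61.1% B6 (52.2 to 69.5%). The intervals of single genes were not adjusted for the number of genes. How many of all regions had such an interval was not counted.

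One of 84 F1 regions in the clusters passed, where 13.7% of all tested regions did. It was chr6:52174852-52175761 in an intron of Hoxa3 and Hoxaas3 and in state 2. The region had 15 B6 and 33 CAST counts in the first ATAC library and 10 and 28 in the second (−1.29 ± 0.398, adjusted p = 0.0364, edgeR), and 2 and 9 in H3K9ac. With regions of at least 10 allele counts in the test, its adjusted p was 0.0529.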

How the data were processed

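ATAC-seq and ChIP-seq of enriched male germ cells, and DMC1 and HELLS ChIP-seq of testis, were deposited as tables. The authors deposited whole-number counts of reads per region for each library, peak lists with positions, and a state number per 200-bp bin; F1 counts per allele need not be whole (expected counts, per the file headers) and were rounded. BWA 0.7.15, Bowtie 0.12.9, CASAVA and MACS 1.4.2 are named in the submitters' processing notes, with no role given there. The DMC1 control list, whose deposited name says wild type, was read as Hells het after the labels. Coordinates are mm10 (GRCm38), 1-based. 10 columns matched no sample and were not used, and 56 duplicate rows of the Hells ATAC table were removed.

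Each table was fitted whole in edgeR 4.0.16 (R 4.3.3; TMM, filterByExpr, quasi-likelihood test), with Benjamini-Hochberg adjustment over all regions of the table (81887, 95033, 91909 and 78959 tested) and a threshold of 0.05. SE is the log2 fold change divided by the square root of F. DESeq2 1.42.0, other scalings, other windows and leaving out each library were alternatives. The Hells ATAC libraries of 1 number series were also fitted as pairs. Scripts were tested on simulated data. The members and gene lists were chosen with earlier results of these data known. Named genes are all that passed a test (or the 3 with the lowest p), the highest of each cluster, and those with a peak or with no region; regions inside clusters were named after their values were seen. Libraries of the other groups were not analysed here.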

Additional observations from a re-analysis of the deposited data

How the results depend on the processing

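Leaving out 1 library moved the number of Hox genes that passed: from 0 to 5 for ATAC-seq of KI against B6, 0 to 35 for H3K9ac of KI against B6, 0 to 12 for H3K9ac of Spo11/Spo11 against B6 and 0 to 19 for H3K4me3 of Hells CKO, the last with 0 without CKO replicate 3, 2 without replicate 2 and 19 without replicate 1. For H3K4me3 of Hells CKO the count was 4 with DESeq2, 3 with RLE factors, 2 with no low-count filter and 0 with Hells wt alone as control. With windows of 2 kb, 1 promoter (Hoxa10) held a het DMC1 peak, beside 10.1% of protein-coding genes. Some values near 0 changed sign. When each library was left out in turn, Hells ATAC ran from −0.04 (without CKO replicate 1) to 0.71 at Hoxc12, from −0.08 (without wt replicate 1) to 0.43 at Hoxc6 and from −0.37 to 0.01 (without wt replicate 2) at Hoxc11. At the HoxD site, H3K9ac of Spo11/Spo11 ran from −0.06 (without B6 replicate 2) to 0.42, and H3K4me3 of Spo11/Spo11 from −0.25 to 0.07 (without Spo11/Spo11 replicate 1). An H3K9ac region of HoxC near Gm27337 was at −0.0 with library size alone. The cause was not tested. With the library number series as a replicate block, Hells ATAC called 0 of 30 Hox genes, as without it, and the median log2 fold change was 0.10 with 24 positive, beside −0.08 with 8 positive; the labels give no replicate numbers that pair samples. Library size alone and scaling on promoter regions were chosen after seeing the data. Groups of 1 to 3 libraries limit every comparison, and single libraries are taken to vary like the others.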
